A study of Mus musculus with 6 samples.

Results

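The chromatin accessibility of 9 genes of the common gamma chain cytokine system was compared between white blood cells of control mice and of a group under high-altitude de-acclimatization (HADA). The 9 genes were the receptor genes Il7r, Il2rb, Il2rg, Il4ra, Il21r, Il15ra and Il9r and the kinase genes Jak1 and Jak3. Every peak whose summit lay in the body of one of these genes, or within 3 kb of one of its annotated transcription starts, was taken, and peaks of different libraries that shared 1 bp were merged into a region. This gave 45 regions of 62876 in the whole series. Of these, 24 lay within 3 kb of a start and 21 elsewhere in the gene body.

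ATAC-seq, in which the Tn5 transposase cuts open DNA, was performed on unsorted leukocytes from peripheral blood after red cell lysis, with 3 control and 3 HADA libraries. The study's methods name leukocytes, whereas its results text names mononuclear cells, which would hold few neutrophils. HADA is the phase after a return from low to normal oxygen. Per the study's methods the mice were male C57BL/6j, HADA mice were kept in a hypobaric chamber that simulated high altitude and were then moved to normoxia, and controls stayed in normoxia. No gene was altered in either group. The day of blood collection for these libraries and the number of mice per library are not given in the sources used here, so the spread between libraries may be partly technical. The libraries were called one by one and held 41475, 41214 and 34045 peaks in control 1 to 3 and 44401, 44044 and 45799 in HADA 1 to 3. The genome-wide background pileup, a stand-in for depth, lay between 1.69 and 2.05 fragments in control and between 1.99 and 2.34 in HADA.

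The common gamma chain, encoded by Il2rg, is a subunit of the receptors for IL-2, IL-4, IL-7, IL-9, IL-15 and IL-21. Each of these receptors pairs it with at least one other chain, and cytokine binding activates JAK1, bound to the partner chain, and JAK3, bound to the common chain, which then phosphorylate STAT proteins. Among lymphocytes, the system maintains naive T cells and NK cells and directs class switching and plasma cell formation in B cells.

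The sequences below are 201-bp windows centred on the summit of 7 regions on which the comparison turns, read from GRCm39 and written 5′ to 3′ on the strand of the gene. They are the 3 strongest Il21r differences, the Jak1 intron, the single Il2rg region, and the 2 regions with a peak in every library of one group and in none of the other. No window overlaps an exon. Capitals mark matches to the motifs described further on, and a window without capitals holds none.
Il21r upstream of the start, chr7:125202340-125202540, plus strand: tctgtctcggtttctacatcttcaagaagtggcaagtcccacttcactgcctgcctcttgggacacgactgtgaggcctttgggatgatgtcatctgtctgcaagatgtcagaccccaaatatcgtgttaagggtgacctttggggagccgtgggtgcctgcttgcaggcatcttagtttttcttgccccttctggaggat
Il21r proximal intron region, chr7:125206952-125207152, plus strand: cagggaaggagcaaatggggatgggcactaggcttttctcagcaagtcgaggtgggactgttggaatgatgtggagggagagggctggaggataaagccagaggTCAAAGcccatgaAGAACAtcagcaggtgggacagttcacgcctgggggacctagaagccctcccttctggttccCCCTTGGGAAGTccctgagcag
Il21r distal intron region, chr7:125229487-125229687, plus strand: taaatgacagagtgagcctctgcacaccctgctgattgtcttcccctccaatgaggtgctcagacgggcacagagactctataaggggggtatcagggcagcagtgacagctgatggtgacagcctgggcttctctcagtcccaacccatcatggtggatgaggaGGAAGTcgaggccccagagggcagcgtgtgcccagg
Jak1 intron region, chr4:101112052-101112252, minus strand: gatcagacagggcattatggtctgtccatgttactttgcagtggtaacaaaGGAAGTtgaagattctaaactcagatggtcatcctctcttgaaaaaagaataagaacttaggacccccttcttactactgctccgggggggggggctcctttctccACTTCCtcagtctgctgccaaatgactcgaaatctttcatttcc
Il2rg upstream of the start, chrX:100311866-100312066, minus strand: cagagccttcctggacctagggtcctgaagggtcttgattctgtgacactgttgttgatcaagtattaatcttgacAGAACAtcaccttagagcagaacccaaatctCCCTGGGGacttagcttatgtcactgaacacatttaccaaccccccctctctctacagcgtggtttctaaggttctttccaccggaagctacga
Il2rb region of HADA libraries, chr15:78386840-78387040, minus strand: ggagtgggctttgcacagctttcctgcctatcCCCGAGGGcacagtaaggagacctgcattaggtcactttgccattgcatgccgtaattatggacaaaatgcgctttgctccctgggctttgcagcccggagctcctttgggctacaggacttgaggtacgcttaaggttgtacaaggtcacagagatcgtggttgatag
Jak1 region of control libraries, chr4:101012707-101012907, minus strand: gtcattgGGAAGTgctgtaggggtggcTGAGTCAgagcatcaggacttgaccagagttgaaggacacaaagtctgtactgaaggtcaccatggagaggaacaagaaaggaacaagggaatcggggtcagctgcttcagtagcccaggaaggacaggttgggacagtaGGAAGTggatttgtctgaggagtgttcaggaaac

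The height of a region is given as its summit pileup, the number of fragments over the highest base, as solved from the deposited fold and p-value. Groups were compared by limma on log2 pileups centred on each library's median over the 23970 regions with a peak in all 6 libraries, so a difference is relative to that median. The median pileup of those regions lay between 49 and 58 in control and between 77 and 92 in HADA. Divided by the genome background instead, the median shared region was 0.38 log2 higher in HADA.

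Of the 45 regions, 22 had a peak in all 6 libraries. By limma with Benjamini-Hochberg adjustment over all shared regions, 6 of them rose in HADA and 0 fell. Over all shared regions 18.4% rose and 24.5% fell at the same threshold of 0.05. Dividing by the genome background instead, 10 member regions rose and 0 fell, beside 32.2% and 17.6% of all shared regions. With quantile normalization 8 rose and 0 fell, beside 25.0% and 19.6%. At an unadjusted p under 0.05, 7 member regions were higher and 0 lower, against 23.8% and 29.4% of all shared regions. The 6 regions belonged to 2 genes, with 4 at Il21r and 2 at Jak1. The groups did not overlap, with HADA higher, at 9 of the 22 regions, against 29.4% of all shared regions. They did not overlap with HADA lower at 0 of the 22, against 31.2%. The median log2 difference was 0.30 at the member regions and -0.04 over all shared regions, and without Il21r it was 0.21 over 18 regions. The difference was above 0 at 19 regions and below it at 3, which became 22 and 0 with background scaling, 21 and 1 with quantile normalization, and 15 and 7 with ranks of the deposited fold enrichment. Background scaling adds the same 0.38 log2 to every region, and the lowest member difference was -0.12, so the 22 and 0 were fixed by it.

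**Figure D1:**
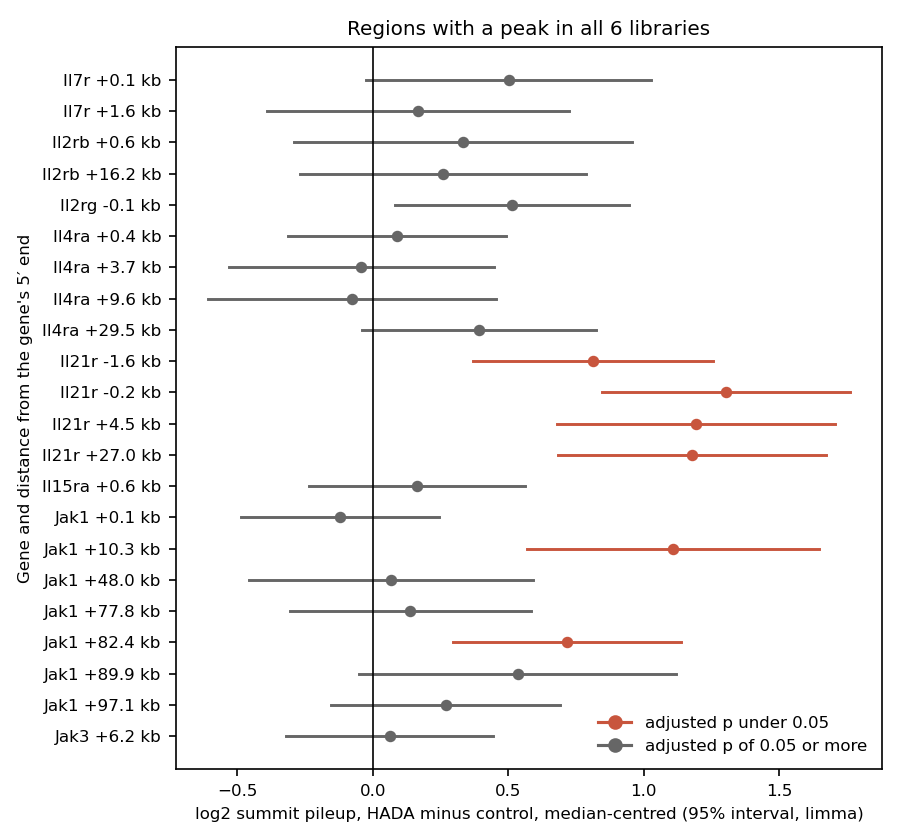
Log2 difference of the median-centred summit pileup, HADA minus control, for the 22 regions with a peak in all 6 libraries, with 95% limma intervals; red points passed the adjusted threshold. Labels give the distance of the summit from the 5′ end of the gene. The intervals of the 4 Il21r regions, of 2 Jak1 regions and of the Il2rg region, which missed the adjusted threshold, lie wholly to the right of 0.

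Il21r encodes the private chain of the IL-21 receptor, which B cells, T cells and NK cells carry. It had 7 regions, 4 of them with a peak in all 6 libraries, and all 4 of those rose in HADA. The tallest, chr7:125202143-125202902, has its summit 161 bp upstream of the gene's 5′ end and is the first sequence above. Its summit pileup was 52, 43 and 28 in control 1 to 3 and 168, 130 and 158 in HADA 1 to 3. Every HADA library lay well above every control library, and control 3 was the lowest. Relative to the genome background the level was 22.3 ± 7.85 in control and 68.9 ± 3.30 in HADA (SD, n = 3), and the median-centred difference was 1.30 ± 0.20 log2 (SE, limma adjusted p = 0.00628).

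A smaller region 1644 bp upstream of the Il21r start, chr7:125200723-125201360, read 37, 27 and 26 in control and 85, 76 and 80 in HADA. The groups were again apart, with a difference of 0.81 ± 0.20 log2 (SE, limma adjusted p = 0.0128). In the gene, the intronic region chr7:125206611-125207747 read 43, 32 and 22 in control and 111, 98 and 122 in HADA, a difference of 1.19 ± 0.23 log2 (SE, limma adjusted p = 0.0071). The second intronic region, chr7:125229153-125230106, lies in the last part of the gene. Its pileup was 41, 38 and 23 in control and 119, 123 and 104 in HADA, a difference of 1.18 ± 0.22 log2 (SE, limma adjusted p = 0.00686). At all 4 regions control 3 had the lowest raw pileup, as it had at the median shared region (49). The lowest HADA library exceeded the highest control library at all 4, in raw pileup and after centring. Relative to the median shared region, control 2 was the lowest at the upstream region, at 0.49 against 0.53 in control 3. The upstream region missed the threshold without HADA 2 (limma adjusted p = 0.0597) or without HADA 3 (limma adjusted p = 0.0506), and the other 3 passed whichever library was left out. Another Il21r region, chr7:125224361-125225311, had a peak of 16 in control 1 alone among controls and of 49, 45 and 42 in HADA. The remaining 2 held a peak in a single HADA library, of 12 in HADA 1 and of 13 in HADA 3.

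The local background at Il21r, which the peak caller averages over a window that can hold the summits themselves, was higher in HADA too. Around the start region it was 14.7, 12.5 and 7.75 fragments in control and 39.8, 36.9 and 40.1 in HADA. Over the genome background this was 6.33 ± 2.24 in control and 17.7 ± 0.78 in HADA (SD, n = 3). At the proximal intronic region the same ratio was 4.17 ± 1.43 and 12.1 ± 0.37, and at the distal one 2.56 ± 0.83 and 7.11 ± 0.64. The deposited fold enrichment divides the summit by this background. With normal scores of the fold rank in place of the pileup, none of the 4 Il21r regions passed: the values were 0.36, 0.19 and 0.20 at the start and both introns (limma adjusted p = 0.207, 0.516 and 0.411), and -0.54 at the upstream region (limma adjusted p = 0.229).

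Il4ra, the gene of the private chain that binds IL-4 and also serves the IL-13 receptor, lies directly before Il21r on chromosome 7 in the same orientation, its annotated end at 125182844 and the Il21r start at 125202601. Il4ra had 5 regions, 4 of them in all 6 libraries, and none passed the test. Its start region, chr7:125150775-125152160, read 112, 80 and 108 in control and 175, 148 and 165 in HADA. After centring the difference was 0.09 log2 (95% limma interval -0.31 to 0.49, adjusted p = 0.707), and the libraries of both groups interleaved on that scale. The next region, chr7:125154414-125155223, differed by -0.04 and the intronic chr7:125160212-125161030 by -0.08 log2. At chr7:125180287-125181090, near the 3′ end, the pileup was 114, 68 and 84 in control and 211, 156 and 164 in HADA. There the centred groups did not overlap, and the difference of 0.39 log2 had an interval of -0.04 to 0.82 (limma adjusted p = 0.123). With background scaling it passed, at 0.77 log2 (limma adjusted p = 0.0146). It did not pass with quantile normalization (limma adjusted p = 0.0821), the fold rank (0.292) or the replicate number as a block (0.151). The last region, chr7:125182429-125183337, had peaks of 58 and 54 in HADA 2 and 3 and in no other library.

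Set side by side within each library, the mean centred log2 level of the 4 shared Il21r regions minus that of the 4 shared Il4ra regions was -0.86, -0.79 and -1.71 in control 1 to 3 and -0.22, -0.06 and 0.01 in HADA 1 to 3. Il21r was thus below Il4ra in every control library and close to it in HADA 2 and 3. This contrast was chosen after the values were seen and is given without a test.

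**Figure D2:**
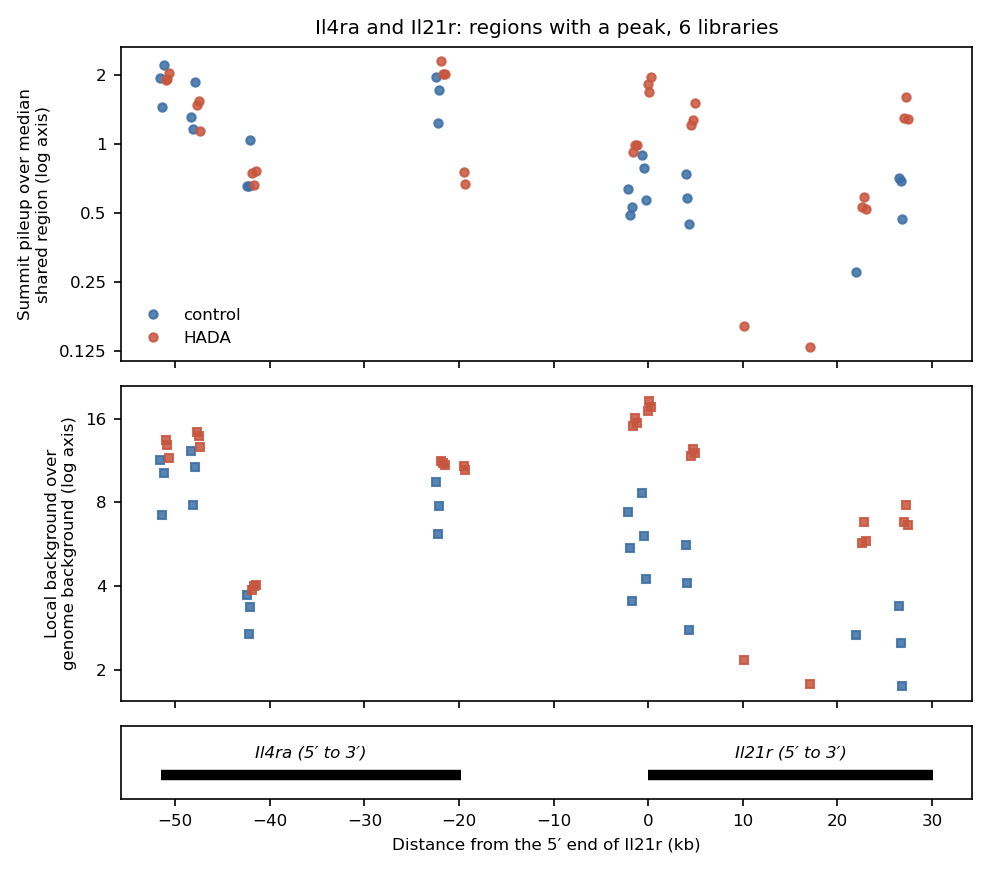
Summit pileup over the library's median shared region (top, log axis) and local over genome-wide background (middle, log axis) for every region with a peak at Il4ra and Il21r, by distance from the Il21r 5′ end, with 1 point per library; points are spread sideways for legibility and both genes are drawn below to scale. At Il21r the HADA points lie above the control points in both panels, whereas at the Il4ra start they are mixed in the top panel.

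Genes that mark blood cell types moved with the groups in these unsorted cells, and the number of cells of a type and the openness per cell cannot be told apart. Each marker gene was measured at its start region. Of 8 B cell genes, 4 had a start region in all 6 libraries and all 4 rose, with a median of 1.99 log2. The summed level of the B cell list over the genome background was 220, 133 and 28.4 in control and 556, 595 and 510 in HADA. Control 3 had no peak at the starts of 4 of the 8 genes, and in the other libraries none was without one. Of 8 T cell genes, 6 were tested: 3 rose and 1 fell, and the summed level ranged from 261 to 348 in control and from 385 to 458 in HADA. The median centred log2 level of the T cell list overlapped between groups, at -0.15 to 0.30 in control and 0.05 to 0.23 in HADA. None of the 2 tested NK cell genes passed, and the summed levels overlapped, 27.9 to 68.7 in control and 64.5 to 84.9 in HADA. The 4 tested neutrophil genes fell, with a summed level of 175 to 443 in control and 74.3 to 129 in HADA, and of 5 tested monocyte genes 4 fell and 1 rose. Of 2 tested erythroid and platelet genes 1 rose, and the summed level did not overlap, 76.5 to 90.0 in control and 154 to 194 in HADA. The part of the cell mixture in the differences at Il21r and Jak1 was not tested.

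Il2rg, the common chain itself, had a single region, chrX:100311308-100312535, with its summit 105 bp upstream of the gene. Its pileup was 88, 60 and 49 in control and 151, 140 and 131 in HADA. After centring the groups did not overlap, with HADA higher, and the difference was 0.51 ± 0.19 log2 (SE, 95% limma interval 0.08 to 0.95, adjusted p = 0.0548), just short of the threshold. It passed without control 1, at 0.71 log2 (limma adjusted p = 0.014), and, with all libraries, after division by the genome background, at 0.89 log2 (limma adjusted p = 0.00677). It lay further from the threshold with any other library left out, with limma adjusted p-values from 0.108 without control 2 to 0.175 without HADA 2. Without control 3 the difference was 0.34 log2 (limma adjusted p = 0.125). It also did not pass with quantile normalization (limma adjusted p = 0.0518), without the variance trend (0.0712) or with the replicate number as a block (0.0885). With the fold rank the value was 0.05 (limma adjusted p = 0.821).

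Il7r encodes the private chain of the IL-7 receptor, the survival receptor of naive and memory T cells. The region at its start, chr15:9529678-9530352, was nearly level within each group, at 20, 19 and 20 in control and 40, 46 and 43 in HADA. The centred groups did not overlap, with a difference of 0.50 log2 (95% limma interval -0.02 to 1.03, adjusted p = 0.107). It passed with quantile normalization, at 0.80 log2 (limma adjusted p = 0.0372), and with background scaling, at 0.88 log2 (limma adjusted p = 0.0206). It did not pass with the fold rank (limma adjusted p = 0.442), with the replicate number as a block (0.203) or without the variance trend (0.0609). Nor did it pass without control 1, control 2 or any HADA library (limma adjusted p = 0.121 to 0.303). Its tallest region, chr15:9528181-9528847, lies in the first part of the gene, 1165 bp beyond an annotated start, and read 32, 26 and 21 in control and 50, 33 and 55 in HADA, with a difference of 0.17 log2 (95% limma interval -0.39 to 0.72, adjusted p = 0.606). After centring, HADA 1 and HADA 2 lay within the range of the controls there. The last Il7r region, chr15:9527251-9527559, had a peak of 25 in HADA 3 alone.

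Il2rb encodes the beta chain shared by the IL-2 and IL-15 receptors, which is prominent on NK cells and memory T cells. It had 5 regions, 2 of them in all 6 libraries. The tallest, chr15:78378858-78379748, lies at an internal start 16210 bp into the gene and read 43, 39 and 24 in control and 63, 56 and 72 in HADA, with a difference of 0.26 log2 (95% limma interval -0.27 to 0.79, adjusted p = 0.386). With a library left out the difference ran from 0.02 log2 without control 3 to 0.38 log2 without control 1. Near the outermost start, chr15:78394514-78395420 read 19, 11 and 10 in control and 29, 22 and 24 in HADA, with a difference of 0.33 log2 (95% limma interval -0.29 to 0.96, adjusted p = 0.35), and it passed with quantile normalization, at 0.84 log2 (limma adjusted p = 0.0458). It did not pass with background scaling (limma adjusted p = 0.0613), the fold rank (0.23) or the replicate number as a block (0.427). Nor did it pass with any library left out (limma adjusted p = 0.102 to 0.672). On the centred scale both regions overlapped between groups. The intronic region chr15:78386536-78387236 was the only one of the 45 with a peak in every HADA library and in no control library, against 7.01% of all regions. Its pileups were 16, 11 and 15, close to the lowest that could be called, which at the genome background was 7 to 9 fragments. In the control libraries the height is unknown, since a list shows nothing below its threshold. A region next to the internal start, chr15:78377594-78378408, had a peak of 27 in control 1 and of 26, 27 and 35 in HADA, and the last had a peak of 10 in control 2 alone.

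Il15ra encodes the high-affinity IL-15 chain, which presents IL-15 to neighbouring cells. Its start region, chr2:11710068-11711139, read 61, 46 and 47 in control and 91, 84 and 89 in HADA. The groups overlapped after centring, with a difference of 0.16 log2 (95% limma interval -0.24 to 0.56, adjusted p = 0.473). A second Il15ra region had a peak of 25 in control 3 alone. Il9r, the private chain of the IL-9 receptor, known from mast cells and some T helper cells, had no region within 3 kb of a start. One intronic peak, chr11:32146125-32146447, was called there in HADA 2 alone, at a pileup of 12.

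**Figure D3:**
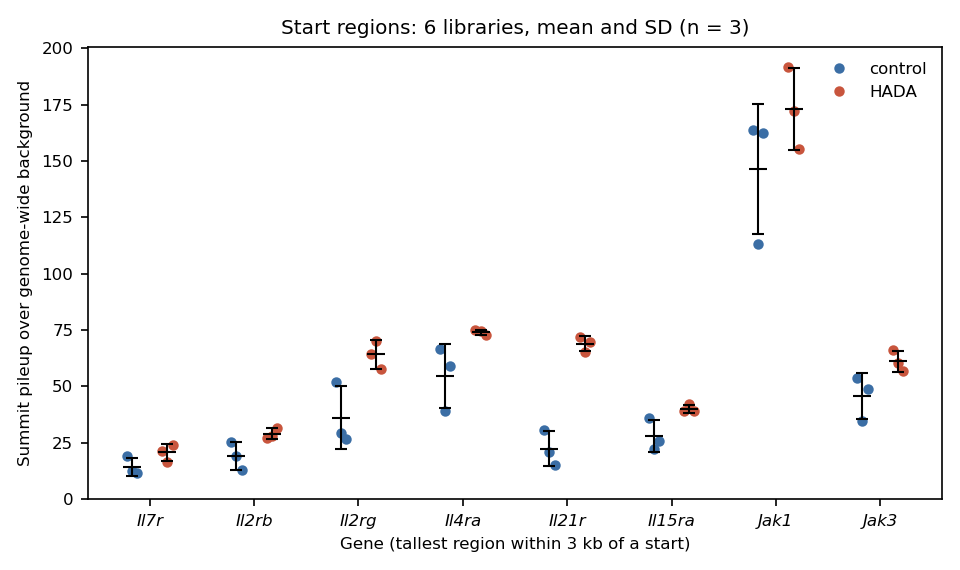
Summit pileup divided by the genome-wide background pileup of the library, for the tallest region within 3 kb of a start of each gene; points are libraries, and bars show the mean and SD (n = 3 per group). Jak1 stood at 146 and 173 times the background in control and HADA, and the groups at Il21r lie far apart relative to their spread; Il9r had no such region.

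Jak1, the kinase gene for the partner chains, held 18 of the 45 regions over a gene of chr4:101008838-101122487. Its 5′ region, chr4:101121631-101122852, was the tallest of all member regions, at 276, 232 and 297 in control and 448, 343 and 353 in HADA. The centred groups overlapped there, with a difference of -0.12 log2 (95% limma interval -0.49 to 0.24, adjusted p = 0.565), and the sign turned with background scaling, at 0.26, and with quantile normalization, at 0.05.

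Inside Jak1, 2 regions rose. The region chr4:101111171-101112762, 10335 bp into the gene in an intron, read 65, 52 and 29 in control and 155, 147 and 158 in HADA. HADA libraries were close together and control 3 was again the lowest, and the difference was 1.11 ± 0.24 log2 (SE, limma adjusted p = 0.00932). It was the only one of the 6 that also passed with the fold rank, at 1.03 (limma adjusted p = 0.0421). Its local background over the genome background was 5.22 ± 1.49 in control and 8.80 ± 0.65 in HADA (SD, n = 3). The region chr4:101039673-101040417, 82430 bp into the gene, read 56, 47 and 40 in control and 109, 122 and 129 in HADA, a difference of 0.72 ± 0.19 log2 (SE, limma adjusted p = 0.0164), which did not pass without HADA 2 (adjusted p = 0.0787) or without HADA 3 (adjusted p = 0.0691).

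Of the other 4 Jak1 regions with a peak in all libraries, none passed, and their differences ran from 0.07 log2 at chr4:101073888-101074700 to 0.54 log2 at chr4:101032161-101033163. The latter passed with background scaling, at 0.91 log2 (limma adjusted p = 0.0137), and without control 1, at 0.77 log2 (limma adjusted p = 0.0326). It did not pass with quantile normalization (limma adjusted p = 0.0838), the fold rank (0.0706) or the replicate number as a block (0.19). Nor did it pass without control 2 (limma adjusted p = 0.248) or without any HADA library (0.123 to 0.334). The mean centred level of the 6 shared regions inside the gene minus that of the 5′ region was -2.65, -2.69 and -3.29 log2 in control 1 to 3 and -2.44, -2.16 and -2.25 in HADA 1 to 3, given without a test since it was chosen after the values were seen. Another 5 regions had peaks in control 1, control 2 and all HADA libraries but not in control 3. The tallest of them, chr4:101042259-101042919, read 42 and 31 in control and 98, 97 and 123 in HADA, and with control 3 left out it was 0.94 log2 higher in HADA (limma adjusted p = 0.00438). The other 4 did not pass in that fit, with limma adjusted p-values from 0.0707 to 0.436.

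A single member region had a peak in every control library and in no HADA library, against 1.88% of all regions. It was chr4:101012501-101013410, near the 3′ end of Jak1 and 491 bp before an annotated internal start, at 17, 15 and 11. Its height in the HADA libraries is unknown for the same reason. A second region, chr4:101029956-101030455, had peaks of 41, 40 and 55 in control and of 42 in HADA 1 alone.

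**Figure D4:**
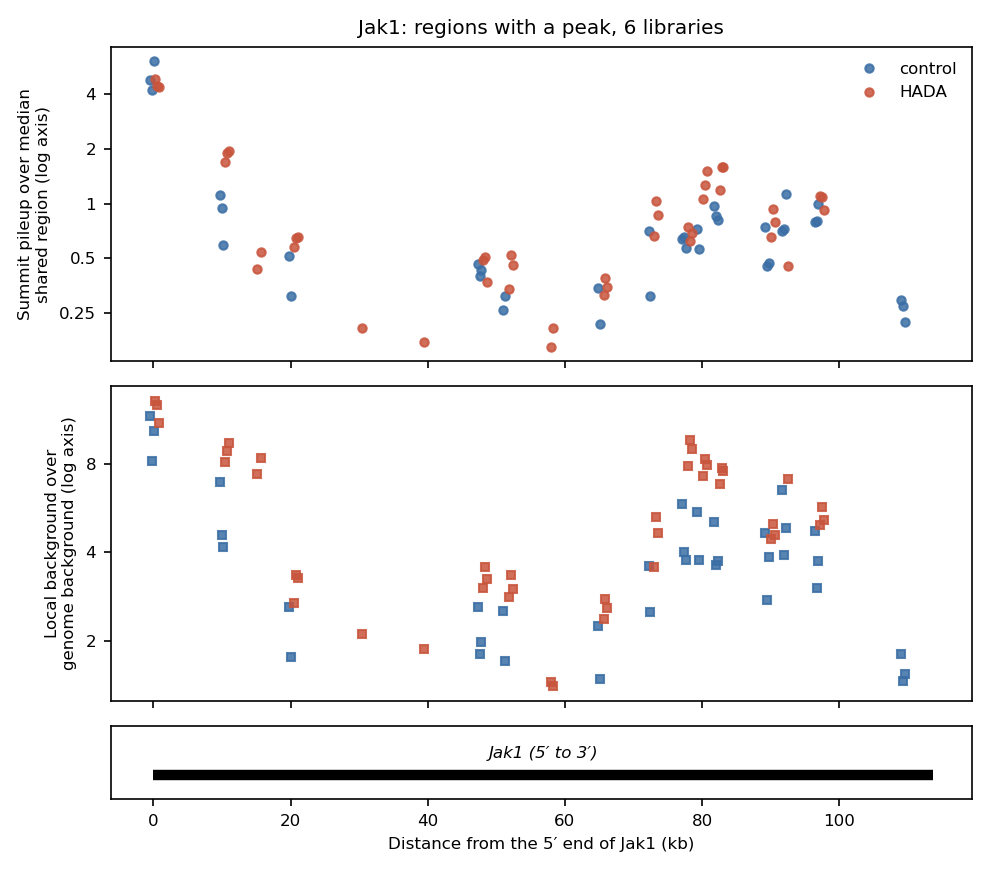
Summit pileup over the library's median shared region (top, log axis) and local over genome-wide background (middle, log axis) at every region with a peak along Jak1, by distance from its 5′ end in the direction of transcription, with 1 point per library; the gene is drawn below to scale. Points of both groups are mixed at the 5′ end, stand apart at 10.3 and 82.4 kb, and only control points are present at 109.7 kb.

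Jak3 encodes the kinase bound to the common chain and is mainly expressed in blood cells. Its tallest region, chr8:72128706-72129639, lies 3 bp from an annotated start and read 91, 71 and 89 in control and 155, 120 and 129 in HADA, a difference of 0.06 log2 (95% limma interval -0.32 to 0.45, adjusted p = 0.787), with overlapping groups after centring. The other 2 Jak3 regions also lie within 3 kb of a start of Unc13a, a neuronal vesicle gene, so they cannot be assigned to Jak3 alone. Of these, chr8:72123813-72124651 read 47 and 33 in control 1 and 2 and 105, 75 and 108 in HADA, and chr8:72120761-72121383 read 33 and 22 in control 1 and 2 and 50, 46 and 45 in HADA. Neither had a peak in control 3. Without control 3 the first was 0.66 log2 higher in HADA (limma adjusted p = 0.0238) and the second did not pass, at 0.19 log2 (limma adjusted p = 0.525).

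Across the 9 genes, 7 of the 45 regions lacked a peak in control 3 alone, against 5.47% of all regions. Of the 23 regions without a peak in some library, 19 had one in more HADA than control libraries and 4 in more control libraries. Over all regions without a peak in some library the shares were 57.3% and 36.6%, and the HADA lists were longer. The number of peaks at the 9 genes was 33, 32 and 25 in control and 36 in each HADA library. Per 10000 peaks of a list this was 7.69 ± 0.31 in control and 8.05 ± 0.17 in HADA (SD, n = 3). The groups overlapped on that scale (two-sided exact permutation p = 0.2, with 0.1 the smallest that 3 against 3 can give).

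**Figure D5:**
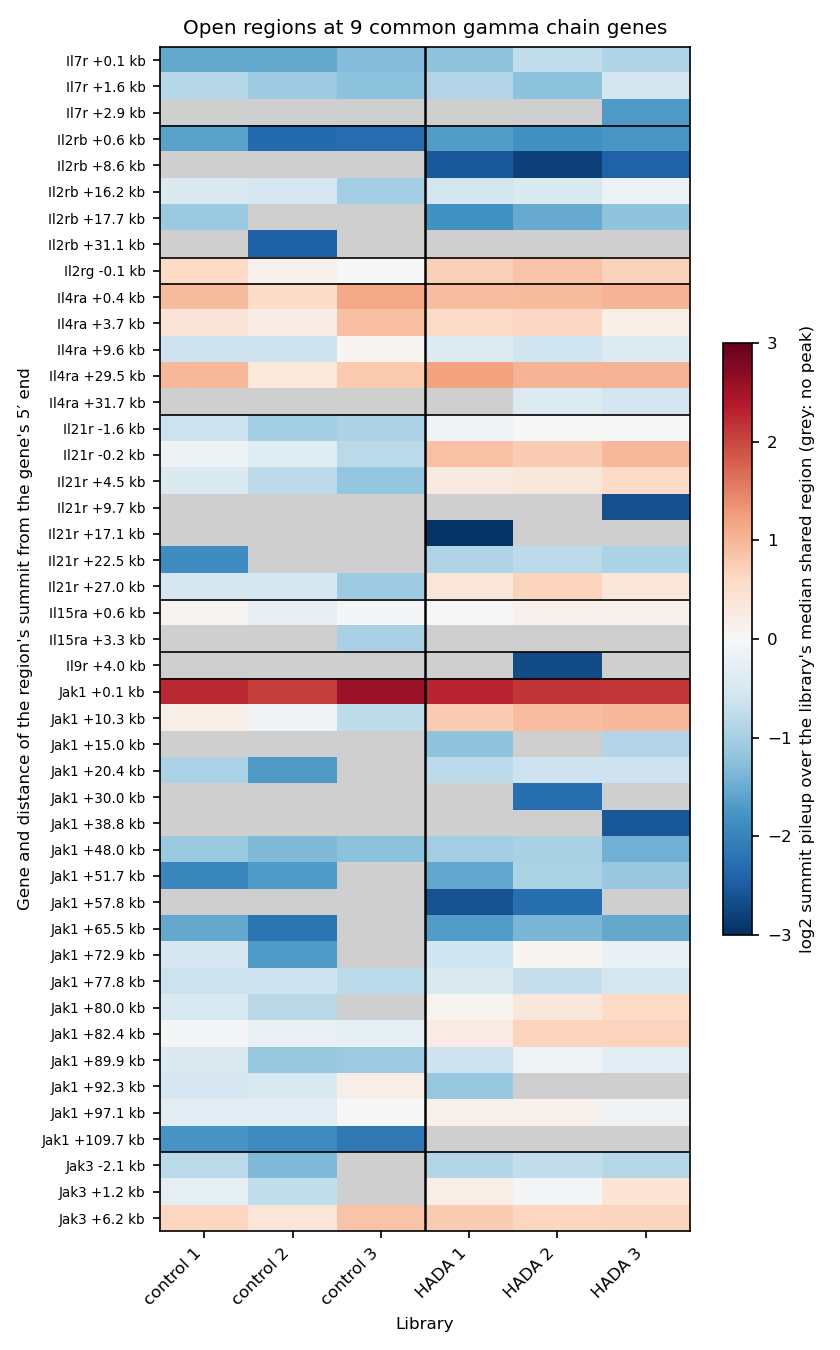
Heat map of all 45 regions (rows, grouped by gene and labelled with the distance of the summit from the gene's 5′ end) in the 6 libraries (columns); colour is the log2 summit pileup over the library's median shared region, and grey marks a region without a peak. In 3 of the 7 Il21r rows the colour turns from blue in control to red in HADA, the Jak1 5′ row is the reddest in all libraries, and grey is most frequent in control 3.

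The other genes of the pathway were described at their start regions: the alternative chains Il2ra, Il13ra1 and Crlf2, the cytokines Il2, Il4, Il7, Il9, Il15, Il21 and Tslp, the transcription factors Stat3, Stat5a, Stat5b and Stat6, and the feedback inhibitors Cish, Socs1, Socs2 and Socs3. Of these 18 genes, 13 had a start region and 10 had it in all 6 libraries. By limma 1 rose and 2 fell, and the median difference was -0.10 log2, as against 0.17 for the start regions of the 8 members that had one, of which 1, that of Il21r, rose. Of all shared regions within 3 kb of a start of a protein-coding gene, 21.4% rose and 9.87% fell. Socs2, a target and inhibitor of STAT5 signalling, read 25, 22 and 20 in control and 56, 56 and 57 in HADA, a rise of 0.72 ± 0.21 log2 (SE, limma adjusted p = 0.0231). Socs3, which restrains STAT3 signalling, read 346, 277 and 586 in control and 366, 227 and 270 in HADA, a difference of -1.07 ± 0.29 log2 (SE, limma adjusted p = 0.0191). Crlf2, which encodes the chain that binds TSLP, read 441, 375 and 769 in control and 553, 368 and 367 in HADA, a difference of -0.88 ± 0.29 log2 (SE, limma adjusted p = 0.0364). The Crlf2 region also lies within 3 kb of starts of Gm72573, Gm73895 and Gm8493, which are not protein-coding. Its peak summits spanned 1686 bp, so the region cannot be assigned to Crlf2 alone. The Socs2 and Socs3 regions likewise lie within 3 kb of starts of 5730420D15Rik and Gm57366, respectively. Control 3 was the highest library at both genes that fell. The start regions of these 4 STAT genes differed by -0.18 to 0.21 log2 and none passed. No start region was found for Il2, Il4, Il9, Il21 or Tslp. Over starts and bodies together, 19 of 43 regions of the pathway list had a peak in all libraries, of which 3 rose and 5 fell, with a median of -0.19 log2. In the bodies, 2 regions of Il2ra, the alpha chain of the IL-2 receptor, rose by 0.84 and 1.18 log2 (limma adjusted p = 0.0265 and 0.0121), while 2 regions of Il15 differed by -2.05 and -1.35 log2 (limma adjusted p = 0.0094 and 0.0347) and 1 of Il13ra1 by -1.27 log2 (limma adjusted p = 0.0233). These regions were named after their values were seen.

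Likeness across libraries was described for Il7r and Il2rb over the start regions of 11575 other protein-coding genes, as the Pearson correlation of centred log2 pileups over the 6 libraries, which share their depth and cell mixture. The genes most like Il7r were Atp5me (r = 0.94), Nid2 (r = 0.94) and Mrpl11 (r = 0.92). Those most like Il2rb were Il17d (r = 0.99) and the pair Abhd14b and Abhd14a (r = 0.98), which share 1 region. With 6 points and so many genes compared, values of this size are a description only.

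The windows printed above, and those of the other member regions, were searched on both strands for consensus letters of 8 factor families, with overlaps between motifs allowed. The STAT motif TTCNNNGAA, the end point of the pathway itself, was present in 2 of 45 windows (4.44%), against 5.96% of the windows of all 62876 regions; 1 of the 2 lay at the Il7r start. The ETS letters GGAAGT were found in 26.7% of member windows and 21.2% of all. They stand in capitals in both Il21r introns, in the Jak1 region of control libraries and, in both orientations, in the Jak1 intron. The EBF letters CCCNNGGG, named for a B cell factor, were found in 15.6% against 8.23%. They stood in the proximal Il21r intron region, the region 1644 bp upstream of Il21r, Il2rg and the Il2rb region of HADA libraries. They also stood at the internal Il2rb start and the Jak3 start, which differed by 0.26 and 0.06 log2 and did not pass, and in the Il9r peak. The RUNX letters TGTGGT were found in 15.6% against 17.6%, TCF7 letters TCAAAG in 13.3% against 11.4%, AP1 letters TGAGTCA in 8.89% against 3.88%, GATA letters AGATAA in 6.67% against 7.0%, and the glucocorticoid receptor letters AGAACA in 6.67% against 14.3%. The window upstream of the Il21r start, where the difference was largest among the member regions tested, held none of these letters. The central 50 bases of all 45 regions had 1 exact copy in the genome. A match is a run of letters and was not tested as a binding site.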

How the data were processed

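The 3 control and 3 HADA libraries were grouped by their titles, which name peripheral blood. The authors' reads passed through Trimmomatic, Bowtie2 (GRCm39), Picard duplicate removal and MACS2, run on each library by itself. Options, versions and any Tn5 shift are not given in the sources used here, so summits may sit a few bases off the insertions. The deposited lists hold per peak a score, the −log10 of its p-value and q-value, a fold enrichment (a ratio of summit to local background) and the deposited summit offset from the peak start, a whole number of bases and no other measurement. From fold and −log10 p, the summit pileup and local background were solved for 100% of peaks. A summit offset never fell outside its peak. Library totals were not analysed here, and pileups carry counting error that no interval here covers separately.

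Peaks sharing 1 bp were merged. Genes and starts came from GENCODE for GRCm39. Median-centred log2 pileups were compared with limma 3.58.1 in R 4.3.3 with a mean-variance trend, without replicate blocks. Tests on simulated data preceded this. Regions named were each gene's tallest start region, all called regions and all regions of one group alone; others were named after their values were seen. 1 gene of the pathway list is not reported here and stayed out of its counts. The members, gene lists and marker lists were chosen with earlier results of these data known. Alternatives covered scaling, measure, peak threshold, merging, gene window and left-out libraries.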

Additional observations from a re-analysis of the deposited data

How the results depend on the processing

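Of 6 member regions higher in HADA by limma, the count became 10 with background scaling, 1 with the fold rank (7.65% of all shared regions), 8 with quantile normalization, 3 with summits merged within 150 bp (15 regions tested, 18.4% of all regions higher) and 3 within 3 kb of a start only (14 tested, 21.4% of all such regions higher), leaving out one library gave 4 to 8 (8 of 29 tested without control 3, 22 tested otherwise), beside 5.6% to 20.97% of all shared regions, and the count of lower regions was 0 under every alternative. Background scaling added Il2rg, 1 Il4ra, 1 Il7r and 1 Jak1 region. Over all shared regions, 42.97% of calls were higher, against 64.66% with background scaling, 56.07% with quantile normalization and 56.75% with the fold rank. The calls over all shared regions were 4417 higher and 5862 lower, 7711 and 4214 with background scaling, 1834 and 1398 with the fold rank, and 1379 and 2947 without HADA 2.

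The count of regions in all HADA and no control libraries, 1, became 0 with summits merged and 0 near starts only, and 1 to 3 with a library left out. The count in all control and no HADA libraries, 1, became 0 at a −log10 q of at least 5, and 1 to 2 with a library left out. Peaks at the 9 genes per 10000 differed by 0.359, and by -0.253 near starts only. Among the start regions and the called regions, the sign changed at Il7r 9528181 (-0.207, fold rank), Il4ra 125150775 (-0.076 without control 2, -0.076 to 0.169 over left-out libraries), Il21r 125200723 (-0.541, fold rank), the Jak1 5′ region (0.257 with background scaling, 0.052 with quantile normalization) and Jak3 72128706 (-0.156, fold rank, and -0.064 without control 2, -0.064 to 0.128 over left-out libraries). Over all 22 shared regions the sign turned at 3 with background scaling, 2 with quantile normalization, 6 with the fold rank and 0 to 2 with a library left out. These include Il4ra 125154414 and 125160212 (0.34 and 0.30, background scaling) and Jak1 101044432 and 101073888 (-0.66 and -0.10, fold rank). The cause of these changes was not tested. Given by construction are the 0.38 log2 that background scaling adds to every region and the smaller number of regions under merging and near starts.

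With the replicate number as a block, 6 member regions rose and 0 fell, and over all regions 3330 rose and 5757 fell. Same-numbered control and HADA libraries deviated from their group means with correlations of -0.08, 0.075 and -0.376, so the libraries share only a number. Depth limits the regions without a peak, whose height is unknown below a limit of 7 to 9 fragments at the genome background and higher where the local background is raised.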
